A study of Mus musculus with 9 samples.

Results

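The 6 *Lce3* genes of the mouse, *Lce3a* to *Lce3f*, were followed in bulk RNA-Seq of skin from 5 control and 4 *Supt6*-KO mice. They were taken as the rows whose NCBI gene ID belongs to these symbols, which gave 6 of the 17943 genes in the table. *Supt6* codes for SPT6, a histone chaperone that travels with RNA polymerase II. The *Supt6*-KO mice carried K14-CreERT and *Supt6* fl/fl, a floxed *Supt6* on both alleles, and received tamoxifen by daily intraperitoneal injection. The controls are WT in the labels and, according to the study's methods, *Supt6* fl/fl mice without Cre that received corn oil. The treatment label names tamoxifen for all samples, including these controls, so whether the controls received it is uncertain. Cre and *Supt6* deletion differed between the groups, and so did tamoxifen if the methods hold, and these cannot be told apart. All mice were harvested on day 10 after the last injection. The K14 promoter drives Cre in basal keratinocytes of stratified epithelium, so the deletion reaches these cells and their descendants and not the other cells of the skin. The labels name the tissue as ear and the study's methods as dorsal skin.

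Late cornified envelope (*Lce*) genes code for small proteins rich in cysteine and glycine, which transglutaminases crosslink into the cornified envelope, the shell that replaces the plasma membrane of the outermost keratinocytes. They lie in the epidermal differentiation complex, a gene cluster that also holds loricrin, involucrin and the small proline-rich (*Sprr*) genes. In human skin *LCE1* genes are active in healthy epidermis, whereas *LCE3* genes are low there and are known for their induction after injury of the skin barrier and in psoriasis.

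The authors deposited estimated counts from RSEM, which summed to 29627341 to 30491197 per control mouse and to 30597189 to 30967107 per *Supt6*-KO mouse. Levels are given here as CPM, counts scaled to a common library size with edgeR's TMM factors, with the SD over 5 control or 4 *Supt6*-KO mice. A library with 0 counts of a gene allows up to 3, which is taken as the floor and covers counting error only. The TMM factors lay between 1.198 and 1.315 in the controls and between 0.674 and 0.910 in the *Supt6*-KO mice. *Supt6* itself (NCBI gene 20926) had 2786, 2068, 2297, 3370 and 3798 counts in control mice 1 to 5, and 684, 503, 478 and 791 counts in *Supt6*-KO mice 1 to 4. All *Supt6*-KO mice were under the lowest control, in the direction of their labels, and the level fell from 76.5 ± 17.2 to 25.7 ± 3.31 CPM (log2 fold change −1.57, SE 0.18, edgeR adjusted p = 1.3e-05). With a correction for transcript length the log2 fold change was −0.86 (adjusted p = 0.00099), under the 2-fold limit used for calls. *Supt6*-KO mouse 4 stood apart from the other 3 in its keratinocyte genes. Its 6 suprabasal keratinocyte markers summed to 21540 CPM, against 41504 to 44111 CPM in *Supt6*-KO mice 1 to 3 and 20424 to 22250 CPM in the controls. Where a call or count in the gene lists below changed without this mouse, the value without it is given.

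The *Lce3* genes occupy 68.1 kb of chromosome 3, from 92925287 to 92993426 in GRCm38 (mm10). In the GENCODE annotation each has 2 exons, with the whole coding sequence of 98 codons in exon 2. *Lce3a* lies at chr3:92925287-92926230 on the reverse strand. *Lce3b* (chr3:92932979-92934097), *Lce3c* (chr3:92944486-92945733), *Lce3d* (chr3:92957390-92958505), *Lce3e* (chr3:92967061-92968281) and *Lce3f* (chr3:92992226-92993426) lie on the forward strand. The 110 bases before the RefSeq start of each gene (GRCm38.p6) are shown because the members moved together. They are read 5′ to 3′ on the strand of the gene, with the last base adjoining the first transcribed one. Capitals mark ATAAAA and, upstream of it, the match to the C/EBP-type motif nearest to the start, TTNCNNAA, which is read on the other strand.
Lce3a: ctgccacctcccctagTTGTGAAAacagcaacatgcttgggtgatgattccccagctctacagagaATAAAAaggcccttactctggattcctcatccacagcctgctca
Lce3b: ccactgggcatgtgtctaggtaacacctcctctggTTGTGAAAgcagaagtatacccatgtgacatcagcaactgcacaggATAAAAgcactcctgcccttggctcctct
Lce3c: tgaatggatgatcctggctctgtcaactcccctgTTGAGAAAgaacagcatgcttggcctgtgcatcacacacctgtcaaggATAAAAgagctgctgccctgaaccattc
Lce3d: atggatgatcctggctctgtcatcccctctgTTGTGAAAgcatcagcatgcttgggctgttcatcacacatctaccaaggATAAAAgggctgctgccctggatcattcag
Lce3e: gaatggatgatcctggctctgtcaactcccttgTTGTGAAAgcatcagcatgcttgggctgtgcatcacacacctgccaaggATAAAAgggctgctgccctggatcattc
Lce3f: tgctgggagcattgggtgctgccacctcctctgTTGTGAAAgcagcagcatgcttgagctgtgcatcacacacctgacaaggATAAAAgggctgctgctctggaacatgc

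The C/EBP-type letters, counted on both strands of the 300-base promoter windows, occurred in all 6 members, in 2 of the 13 *Lce1* promoters that could be matched and in 40.7% of 32851 mouse promoters. The printed match starts between −94 (*Lce3a*) and −75 (*Lce3b*), and *Lce3c* differs from the other members inside it. ATAAAA, which was searched only after the sequences had been seen, occurred in all 6 members, in 12 of 13 *Lce1* promoters and in 18.5% of all promoters. The longer GATAAAAG, also chosen after the sequences had been seen, occurred in 5 members, all but *Lce3a*, in 0 of 13 *Lce1* promoters and in 0.9% of all promoters. TATAAA occurred in *Lce3e* alone among the members (13.6% of all promoters), on the other strand and far from ATAAAA. No member held the AP-1 letters TGANTCA (7.8%), the NF-κB consensus (8.5%) or the GRHL letters AACCGGTT (0.1%) and ACCGGTT (1.0%), of which the shorter lies within the longer. The 300-base windows extend past the annotated start and so include some transcribed bases. Over the last 150 bases of these windows, those of *Lce3c* to *Lce3f* were 81.9% to 88.3% identical to each other. That of *Lce3a* was 51.7% to 58.3% identical to the other members. These matches are descriptions of letters and not of bound sites.

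All 6 *Lce3* genes rose in *Supt6*-KO skin, from 0.201 to 2.76 CPM in the controls to 70.6 to 215 CPM. All 6 were called higher (edgeR's quasi-likelihood test, adjusted p under 0.05 and log2 fold change of at least 1), as were 20.9% of the 16426 genes tested. In all 6 members every *Supt6*-KO mouse lay above every control, which held for 28.9% of the genes tested. The median log2 fold change of the members was 8.34, beside −0.07 for all genes tested. In these bulk samples fewer cells of a type and less RNA per cell cannot be told apart, and the same holds for a rise.

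*Lce3a*, the outermost member and the only one on the reverse strand, had 12, 10.2, 17.1, 2 and 3 estimated counts in control mice 1 to 5. In *Supt6*-KO mice 1 to 4 it had 3167, 1689, 3428 and 1672. Controls 4 and 5 were at or under the floor of 3 counts, and the lowest *Supt6*-KO mouse was 128 times the highest control in CPM. Its mean level went from 0.239 ± 0.175 to 108 ± 44.7 CPM, which gave the largest log2 fold change of the 6 (8.80, SE 0.48, edgeR adjusted p = 1.6e-07) and the 18th largest of all genes tested.

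*Lce3b*, the lowest member in *Supt6*-KO skin, had 13, 10, 7, 7 and 0 counts in the controls. The 0 counts of control 5 allow up to 3. It had 2250, 1102, 1868 and 1399 counts in the *Supt6*-KO mice. The groups were far apart here too, and the level went from 0.201 ± 0.13 to 70.6 ± 22.3 CPM (log2 fold change 8.44, SE 0.44, edgeR adjusted p = 1.4e-07).

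*Lce3c* was the member with the most RNA in control skin. Its estimated counts were 108, 117, 115, 92.7 and 78.7 in the controls and 6255, 4677, 5664 and 3223 in the *Supt6*-KO mice. It was well above the floor in each control and showed the smallest spread among the controls of the 6, with an SD of 18.2% of the mean. The level went from 2.76 ± 0.503 to 215 ± 68.4 CPM. This was the smallest log2 fold change of the 6 (6.28, SE 0.27, edgeR adjusted p = 5.7e-08), still a rise of 77.9-fold.

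*Lce3d* had 21.1, 16.7, 30.5, 14 and 6 estimated counts in the controls and 5632, 2999, 3808 and 2506 in the *Supt6*-KO mice. *Supt6*-KO mouse 1 was the highest for this gene, and the groups did not overlap. The log2 fold change was 8.39 (SE 0.41, edgeR adjusted p = 9.6e-08), from 0.478 ± 0.249 to 161 ± 60.6 CPM.

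*Lce3e* had 15.2, 28.2, 21.9, 21.2 and 13 estimated counts in the controls and 4054, 2593, 3924 and 2572 in the *Supt6*-KO mice. *Lce3f*, the member at the other end of the group, had 30.2, 32, 25.1, 16.2 and 14.3 in the controls and 5341, 3674, 5724 and 3755 in the *Supt6*-KO mice. Both separated the groups by more than 120 times between the lowest *Supt6*-KO mouse and the highest control in CPM (120.5 for *Lce3e* and 154 for *Lce3f*). The log2 fold changes were 8.04 (SE 0.29, edgeR adjusted p = 2.3e-08) for *Lce3e*, from 0.535 ± 0.173 to 141 ± 40.5 CPM, and 8.29 (SE 0.31, adjusted p = 2.5e-08) for *Lce3f*, from 0.632 ± 0.228 to 199 ± 55.2 CPM.

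**Figure D1:**
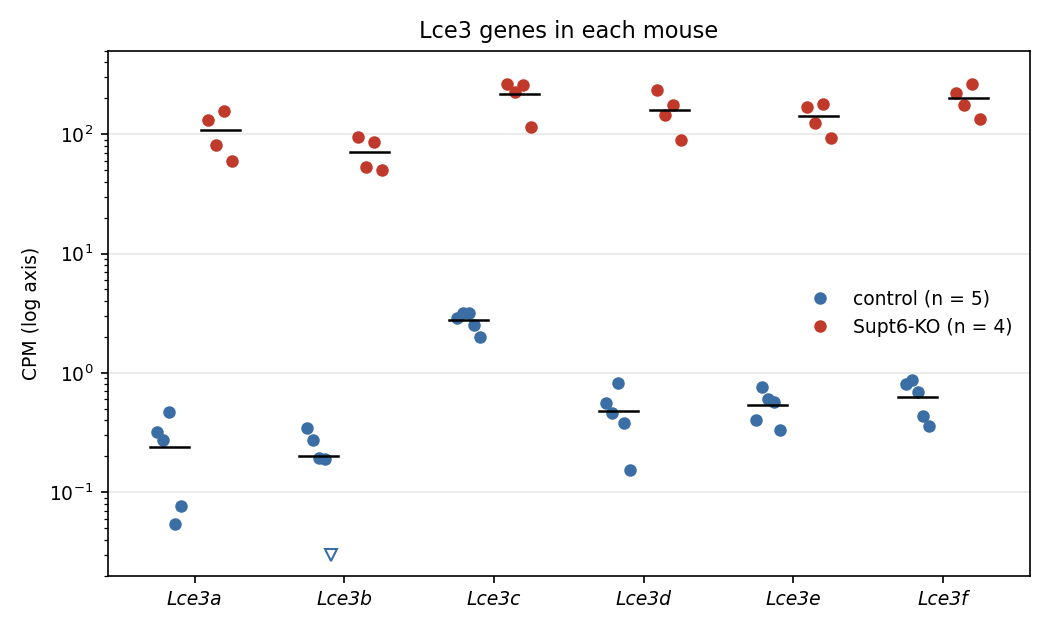
CPM of each *Lce3* gene in every control and *Supt6*-KO mouse on a log axis, with a bar at the group mean; the open triangle marks *Lce3b* in control 5, which had 0 counts and is drawn at the lower edge. The groups do not overlap for any member, and *Lce3c* is the highest member in the controls.

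For each member the two-sided exact permutation test on CPM gave p = 0.0159, the smallest p that 5 against 4 mice allow. *Supt6*-KO mouse 4 was the lowest of its group for all 6 members, and control 5 was the lowest control for 5 of them. Without *Supt6*-KO mouse 4 all 6 members were still called higher, with a median log2 fold change of 8.50. The size of the fold depended on the scaling. With library totals in place of TMM factors, which moved the median over all genes tested from −0.07 to −0.76 on the log2 scale, the members lay between 5.56 (*Lce3c*) and 8.08 (*Lce3a*). The *Lce3* transcripts are short, between 491 and 611 bases. Of the 109 other genes tested with lengths in that range, 57.8% were called higher, and the median of their log2 fold changes was 1.3. With a correction for length the members lay between 4.68 (*Lce3c*) and 7.18 (*Lce3a*), and all 6 were called higher. This correction took out a smooth trend over length, fitted to the log2 fold changes of these same data. It can therefore also remove a real change that genes of similar length share.

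The members resemble each other, so reads can be shared between them, and RSEM divides such reads by estimate. Whole transcripts were 72.5% to 91.8% identical, with *Lce3b* and *Lce3c* the most alike pair. Of all windows of 100 bases in the transcript, none of those of *Lce3a* occurs in another member, while 1.1% of those of *Lce3b*, 24.1% of *Lce3c*, 28.3% of *Lce3d*, 36.4% of *Lce3e* and 43.0% of *Lce3f* do. *Lce3e* and *Lce3f* have 280 bases in a row in common. No window was found in a gene outside the 6. *Lce3a* has up to 98 bases in a row in common with other members, and its estimated counts were not whole in 6 of 9 mice, so reads of this gene were divided as well. The split between *Lce3c*, *Lce3d*, *Lce3e* and *Lce3f* is uncertain to the extent that they share sequence. The counts of all 6 summed into 1 row, which do not depend on the split, gave a log2 fold change of 7.53 (184-fold), below the members' median of 8.34 by more than 1.5 times in fold.

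The study's RT-qPCR primers for *Lce3a* are shown because they bear on this likeness. Capitals mark positions at which at least 1 other member has another base.
Forward primer: ccagcagagTcagaagcagt
Reverse primer: gagCttgtagcacagcaCga

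Both primers match *Lce3a* without a mismatch and enclose 126 bases. In each of the other 5 members the forward primer has 1 mismatch and the reverse primer has 1 or 2. RT-qPCR values were not analysed here.

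By the estimated counts, whose split between similar members is uncertain, the 6 genes did not rise by the same factor. *Lce3c* made up 58.2% ± 6.41 of the summed *Lce3* counts in the controls and 24.0% ± 2.82 in the *Supt6*-KO mice. Its share was 53.2% to 68.4% in the controls and 21.3% to 28% in the *Supt6*-KO mice, with no overlap. The log2 ratio of *Lce3c* to the sum of the other 5 fell by 2.15 (two-sided exact permutation test, p = 0.0159, Benjamini-Hochberg adjusted over the 6 members p = 0.019). The shares of the others were higher in *Supt6*-KO skin. *Lce3f* went from 12.9% ± 2.03 to 22.6% ± 2.06, *Lce3d* from 9.35% ± 3.28 to 17.8% ± 2.4, *Lce3e* from 11.2% ± 2.5 to 15.9% ± 0.8 and *Lce3a* from 4.51% ± 2.63 to 11.8% ± 1.68, each with adjusted p = 0.019 in the same exact permutation test. *Lce3b* went from 3.79% ± 2.42 to 7.98% ± 1.13 (exact permutation test, adjusted p = 0.0317), a call that was lost when any 1 of 7 of the 9 mice was left out. Its log2 ratio to the other 5 was 1.47 with all mice, 1.39 to 1.65 in 6 of these 7 cases and 0.76 without control 5. With fewer mice the permutation test allows only coarser steps of p. The loss of the call therefore does not by itself show an unstable ratio.

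As the 6 shares sum to the whole, a fall of one raises the rest. Among the 5 members other than *Lce3c*, a comparison added after *Lce3c* had been seen to stand apart, 0 of 5 passed the exact permutation test adjusted over the 5. Their log2 ratios moved by 0.70 (*Lce3a*, adjusted p = 0.437), 0.56 (*Lce3b*, 0.698), 0.10 (*Lce3d*, 0.698), −0.50 (*Lce3e*, 0.437) and −0.12 (*Lce3f*, 0.698). Within these 5, *Lce3f* held 31.4% ± 5.85 of the counts in the controls and 29.7% ± 2.41 in the *Supt6*-KO mice. The 5 genes had 37 to 118 counts each over all 5 controls. That these ratios missed the threshold does not show that the 5 genes rose by the same factor.

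**Figure D2:**
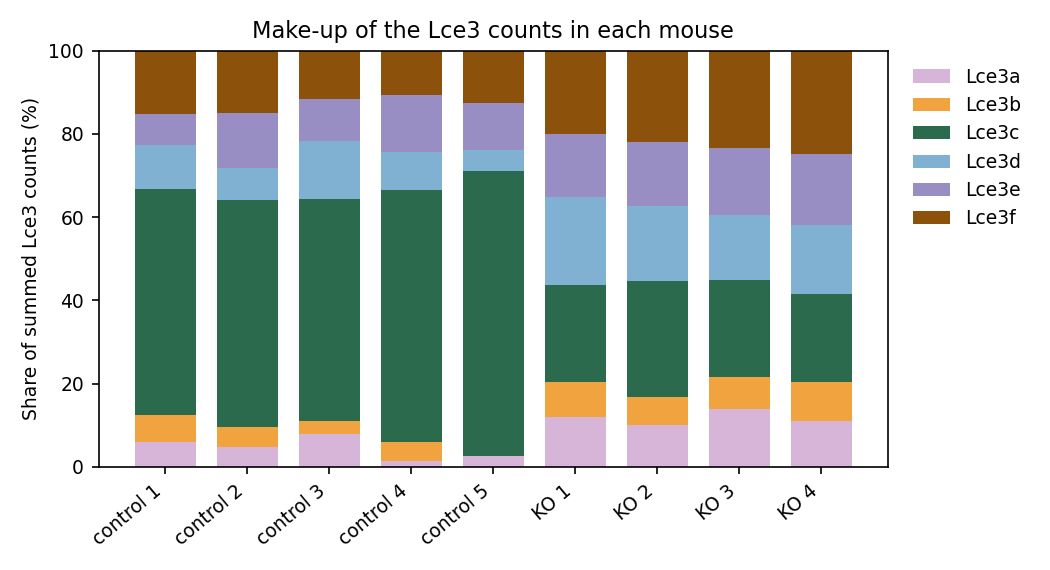
Share of each *Lce3* gene in the summed estimated *Lce3* counts, in percent, as a stacked bar for each of the 5 control and 4 *Supt6*-KO mice. *Lce3c* takes 53.2% to 68.4% in the controls and 21.3% to 28% in the *Supt6*-KO mice.

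Levels between genes were compared as CPM per kb of transcript. In the controls *Lce3c* led with 4.87 ± 0.887 CPM per kb, above the next member in 5 of 5 mice. *Lce3f* (1.03 ± 0.373), *Lce3d* (0.973 ± 0.506) and *Lce3e* (0.882 ± 0.285) followed and did not differ beyond their spread, since *Lce3f* exceeded *Lce3d* in 3 of 5 mice and *Lce3d* exceeded *Lce3e* in 2 of 5. *Lce3a* (0.436 ± 0.318) and *Lce3b* (0.357 ± 0.231) were the lowest, and *Lce3e* exceeded *Lce3a* in 5 of 5 mice.

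In *Supt6*-KO skin *Lce3c* had 379 ± 121 CPM per kb, *Lce3d* 328 ± 124 and *Lce3f* 326 ± 90.4. The order of these 3 varied between mice, with *Lce3c* above *Lce3d* in 3 of 4 and *Lce3d* above *Lce3f* in 2 of 4. *Lce3e* (233 ± 66.7), *Lce3a* (196 ± 81.4) and *Lce3b* (126 ± 39.7) followed in that order in 4 of 4 mice. In the TPM values that the authors deposited for the 5 controls and *Supt6*-KO mouse 4, *Lce3c* was the highest member, at 17.9 ± 1.56 TPM in the controls and 397 TPM in that mouse, where *Lce3f* had 373 TPM, and *Lce3b* the lowest, at 1.29 ± 0.859 and 175 TPM. In CPM per kb the order of the first pair in that mouse was the reverse, with 221 for *Lce3f* and 204 for *Lce3c*.

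The *Lce1* genes, the family members of healthy epidermis, were abundant in the controls. Together the 6 *Lce3* genes had 5.32, 5.86, 5.98, 4.14 and 2.93 CPM in control mice 1 to 5 and 1116, 803, 1117 and 543 CPM in *Supt6*-KO mice 1 to 4. The 14 *Lce1* genes together had 1789, 2176, 1966, 1814 and 1476 CPM in the controls and 7370, 7831, 5277 and 971 CPM in the *Supt6*-KO mice. *Supt6*-KO mouse 4 lay below every control for the *Lce1* sum and far above every control for the *Lce3* sum. *Lce3* RNA thus amounted to 0.198% to 0.304% of *Lce1* RNA in the controls and to 15.1%, 10.3%, 21.2% and 56.0% in *Supt6*-KO mice 1 to 4.

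**Figure D3:**
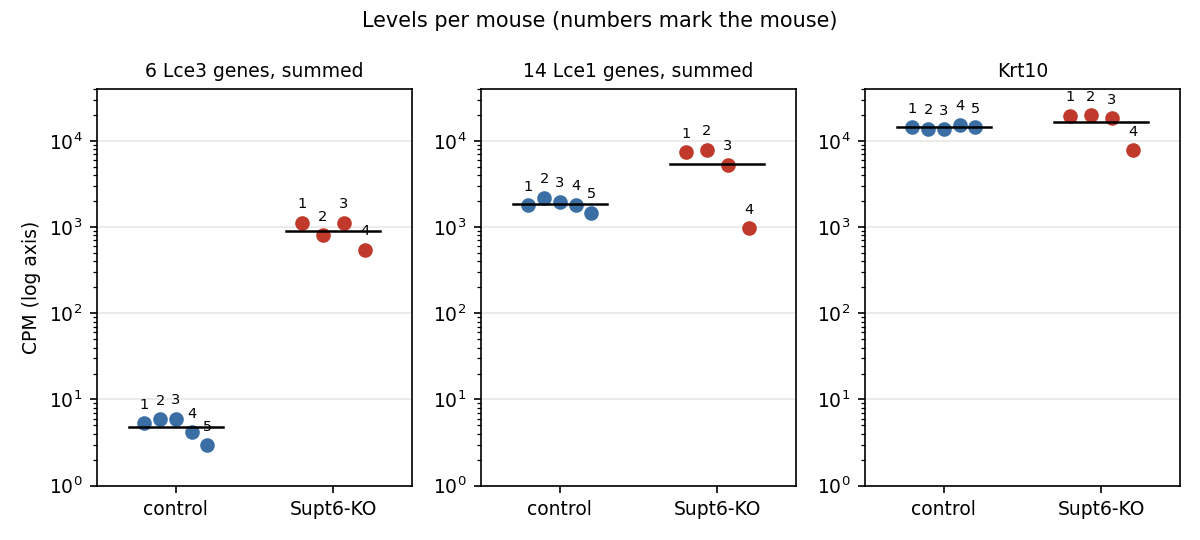
CPM on log axes of the 6 *Lce3* genes summed, the 14 *Lce1* genes summed and *Krt10* in each mouse, numbered within its group, with bars at the group means. *Supt6*-KO mouse 4 has the lowest *Lce1* sum (971) and *Krt10* level (7775) of the 9 mice but an *Lce3* sum (543) above all controls.

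Among the 14 *Lce1* genes and *Lce6a*, a late envelope gene of the same complex, 13 of 15 were called higher and none lower (20.9% and 24.9% of all genes tested, respectively). Their median log2 fold change was 1.70. The 2 largest were *Lce1e* (2.94, SE 0.43, edgeR adjusted p = 9.2e-05) and *Lce6a* (2.70, SE 0.52, adjusted p = 0.00062). *Lce1m* (−0.63, adjusted p = 0.31) and *Lce1l* (0.35, adjusted p = 0.55) were not called. In 2 of the 15, *Lce1e* and *Lce1f*, every *Supt6*-KO mouse lay above every control, beside 28.9% of all genes tested. Without *Supt6*-KO mouse 4, the lowest of the 9 mice in 11 of these 15 genes, this held for 13 of 15, beside 33.9% of all genes tested. Without that mouse 13 were called higher and the median was 2.05. The count of 13 fell to 7 with library totals, where 8.95% of all genes tested were called higher and 41.4% lower. With the length correction it fell to 4, where 2929 of the 16426 genes tested were called higher and 3598 lower. Each setting had 1 gene of the list lower. Whether these families differed in their change was not tested.

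Levels were also set against keratins of the suprabasal layers, where *Lce* genes are expressed. *Krt10*, the keratin of differentiating epidermis, had 14343 ± 730 CPM in the controls and 16352 ± 5762 CPM after *Supt6* deletion (log2 fold change 0.19, edgeR adjusted p = 0.56). Without *Supt6*-KO mouse 4 it was at 0.42 (SE 0.18, adjusted p = 0.049), under the 2-fold limit. Its partner *Krt1* was called higher (3.65, SE 0.24, adjusted p = 5.3e-07). Per 1000 CPM of *Krt10*, *Lce3* RNA came to 0.204 to 0.439 in the controls and 40.5 to 69.9 in the *Supt6*-KO mice. Per 1000 CPM of *Krt1* it came to 4.89 to 7.04 and 74.8 to 100. The groups stayed apart on either keratin. Mouse 4 was the highest of the *Supt6*-KO mice on *Krt10* (69.9) and the lowest of them on *Krt1* (74.8).

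Small proline-rich genes code for bridging proteins of the envelope that are crosslinked in the same layer. Of 14 tested, 13 were called higher and none lower, with a median log2 fold change of 6.96, and in 13 every *Supt6*-KO mouse lay above every control (20.9% and 28.9% of all genes tested, respectively). *Sprr2k* went from 0.0106 ± 0.0145 to 33.2 ± 22.5 CPM and *Sprr3* from 0.00554 ± 0.0124 to 3.55 ± 5.1 CPM, with at most 1 count in any control, so no fold is given. The smallest changes were those of *Sprr1a* (2.86, SE 0.59, edgeR adjusted p = 0.001) and *Sprr4* (0.62, adjusted p = 0.42, not called). *Sprr2a1* and *Sprr2a2* carry the same values in every mouse and cannot be told apart.

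The other envelope partners and the enzymes that crosslink them moved in both directions. Of 19, 7 were called higher, 2 lower and 10 were not called, with a median log2 fold change of 0.62. The shares were 36.8% higher and 10.5% lower, beside 20.9% and 24.9% of all genes tested. Of the transglutaminases, *Tgm5* was called higher, from 26.1 ± 2.19 to 69.7 ± 17.4 CPM (log2 fold change 1.41, SE 0.15, edgeR adjusted p = 1e-05). *Tgm1*, the membrane-bound transglutaminase of the envelope, went from 101 ± 8.98 to 159 ± 21.1 CPM (0.65, adjusted p = 0.0006, below the 2-fold limit). *Tgm3* went from 142 ± 23 to 92.9 ± 20.2 CPM (−0.61, adjusted p = 0.0083, also within the limit).

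*Rptn*, the fused S100 protein repetin of the same complex, had the largest change of these partners, from 6.57 ± 1.38 to 4458 ± 2187 CPM (log2 fold change 9.41, edgeR adjusted p = 6.8e-08). *Crct1* was the next (2.77, SE 0.38, adjusted p = 5.7e-05). *Evpl*, the plakin envoplakin, was called lower (−1.74, adjusted p = 7.4e-06), and *Tchhl1* had the lowest value (−2.56, SE 1.11, adjusted p = 0.056, not called). *Lor*, loricrin, the main protein of the healthy envelope, was the other gene called lower, from 1156 ± 284 to 492 ± 222 CPM (−1.23, adjusted p = 0.0086). The call of *Lor* ended without *Supt6*-KO mouse 4, at −0.95 (SE 0.21, adjusted p = 0.0016), which left 1 gene lower. With library totals 4 of the 19 were higher and 6 lower, where 8.95% of all genes tested were called higher and 41.4% lower.

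Of 28 transcription factors of epidermal differentiation, 2 were higher, 8 lower and 18 not called, with a median log2 fold change of −0.50. The share called lower, 28.6%, was near the 24.9% of all genes tested. The share called higher was 7.14%, beside 20.9% of all genes tested. The 2 higher were *Elf3*, an ETS factor of epithelia, from 1.09 ± 0.206 to 15.1 ± 14.2 CPM (3.79, SE 0.49, edgeR adjusted p = 3.5e-05), and *Prdm1*, which codes for BLIMP1 (1.14, SE 0.21, adjusted p = 0.00057). *Elf3* was 7.00 CPM in the lowest *Supt6*-KO mouse and 1.33 CPM in the highest control. The lowest were *Satb1*, a chromatin organiser of the epidermal differentiation complex (−3.83, SE 0.17, adjusted p = 6.8e-08), and the AP-1 subunit *Fosb* (−3.22, SE 0.42, adjusted p = 3.6e-05). Without *Supt6*-KO mouse 4, 10 were lower, with *Fosl2* (−1.03) and *Tfap2a* (−1.09) added. With library totals 18 of the 28 were lower and 1 higher, where 41.4% of all genes tested were called lower and 8.95% higher.

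Genes known from inflamed or wounded epidermis were called higher in 21 of 21 cases, with a median log2 fold change of 6.61, and in 20 of 21 every *Supt6*-KO mouse lay above every control, against the same 20.9% and 28.9% of all genes tested. The largest were the beta-defensins *Defb4*, from 0.0317 ± 0.0276 to 40.7 ± 29 CPM, and *Defb3*, from 0.0106 ± 0.0146 to 13.3 ± 7.23 CPM, each with at most 3 counts in any control. The smallest were *Krt17* (1.04, SE 0.38, edgeR adjusted p = 0.029) and the siderophore-binding *Lcn2* (1.92, SE 0.20, adjusted p = 7.6e-06). Without *Supt6*-KO mouse 4, 20 of 21 were called, and *Krt17* was not (0.37, adjusted p = 0.13).

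The genes next to the *Lce3* genes had smaller log2 fold changes. On one side the nearest row is *2310050C09Rik*, 55.1 kb from *Lce3a*, with a log2 fold change of −0.47 (SE 0.44, edgeR adjusted p = 0.35). It had 461 CPM in the controls and 332 CPM in the *Supt6*-KO mice, and *Lce1l* and *Kprp* beyond it (0.35 and 0.05) were not called either. On the other side *Crct1* lies 20.8 kb from *Lce3f* and rose from 332 ± 70.6 to 2255 ± 1135 CPM, and *Lce1m* beyond it went from 349 ± 40.3 to 226 ± 156 CPM and was not called. From *Lor* to *S100a10*, both included, 46 other genes were tested. Of these 32 were called higher, 1 lower and 13 were not called, beside 20.9% called higher and 24.9% lower of all genes tested. The 1 lower was *Lor* itself, whose call ended without *Supt6*-KO mouse 4 (log2 fold change −0.95). The *Lce1* genes lie between the *Sprr* and *Lce3* genes, except *Lce1m*, and *Rptn* (9.41) lies beyond *Crct1* and *Lce1m*.

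**Figure D4:**
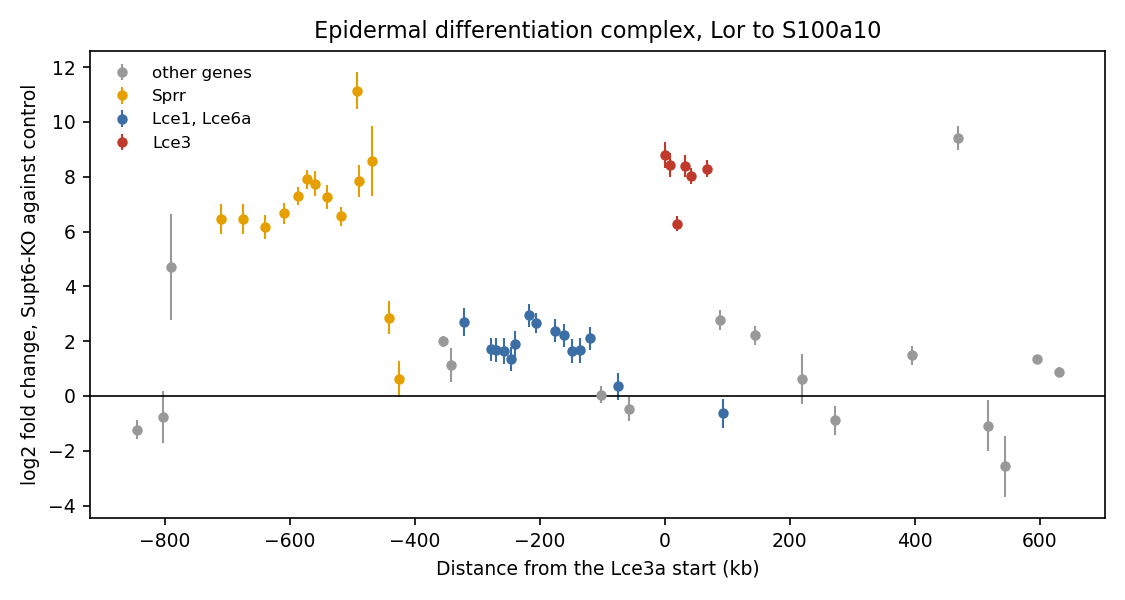
Log2 fold change with its SE (*Supt6*-KO against control) of the genes of the epidermal differentiation complex, plotted by distance in kb from the start of *Lce3a*. The *Lce3* genes (red) lie between 6.28 and 8.80, with *2310050C09Rik* at −0.47 on one side and *Crct1* at 2.77 on the other, and most *Sprr* genes (orange) and *Rptn* (the grey point at 9.41) are also above 6.

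The genes whose levels over the 9 mice were most like those of the *Lce3* genes were found by the root-mean-square (RMS) difference between centred log2 CPM values, among 13888 genes whose median was 3.99. The first was *Stfa1*, a stefin A (RMS difference 0.407), which went from 2.08 ± 0.746 to 323 ± 75.4 CPM. It was followed by *Chil3*, a chitinase-like protein (0.423, from 0.157 ± 0.0686 to 49.7 ± 15.2 CPM), *Sprr2d* (0.441) and *S100a9*, a subunit of calprotectin (0.456, from 12.3 ± 7.08 to 2715 ± 895 CPM). The next were *2610528A11Rik* (0.464), *Tcf23* (0.465), *Sprr2e* (0.472), *Cstdc6* (0.511), *Stfa2* (0.514) and *Stfa2l1* (0.548). The members themselves differed from their own mean by 0.216 (*Lce3f*) to 0.876 (*Lce3c*), so that all 10 genes were closer to that mean than *Lce3c*. Among these 10 are 2 *Sprr2* genes, 4 genes named here as stefins or cystatin-like by their symbols, and *S100a9*, which neutrophils also express. Values were centred over all 9 mice, so the RMS difference depends largely on the size of the gap between the groups. It does not show that these genes varied with the *Lce3* genes within a group.

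Markers of other cells moved with the groups, and their part in the *Lce3* result was not tested. Of 6 neutrophil markers 5 were called higher, beside 20.9% of all genes tested. The sum of the neutrophil markers was 9.49, 7.15, 6.75, 7.49 and 4.07 CPM in the controls and 37.9, 34.1, 81.0 and 24.5 CPM in the *Supt6*-KO mice. *Cxcr2* was the most abundant of them in the controls, and *Retnlg* rose most, from 0.212 ± 0.183 to 20.6 ± 22.2 CPM. *Csf3r* went from 0.496 ± 0.144 to 8.47 ± 2.99 CPM and *Ngp* from 0.0365 ± 0.0428 to 1.43 ± 1.66 CPM. The defining marker *Ly6g* was called higher (edgeR adjusted p = 0.0076) but reached 0.222 ± 0.317 CPM, and *Camp*, at 0.267 ± 0.167 CPM, was not called. *Supt6*-KO mouse 3 was the highest for the neutrophil sum, and its *Lce3* sum (1117 CPM) was level with that of mouse 1 (1116 CPM).

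Of 4 skeletal muscle markers and 5 cartilage markers all were called lower. For these and the other marker counts in this paragraph, 24.9% of all genes tested were called lower and 20.9% higher. The muscle sum, led by *Acta1*, was 3352, 3472, 3559, 2679 and 2665 CPM in the controls and 578, 641, 497 and 460.5 CPM in the *Supt6*-KO mice. The cartilage sum was 428, 351, 325, 498 and 731 CPM in the controls and 62.3, 74.6, 66.1 and 69.9 CPM in the *Supt6*-KO mice, led by *Acan* in the controls, and cartilage is a tissue of the ear that dorsal skin lacks. Of 6 hair shaft and inner root sheath markers 5 were lower, and control 5, the lowest of the controls for the *Lce3* sum, was also the lowest for these markers (4.94 CPM, against 148 to 1806 CPM in the other 4). The *Supt6*-KO mice had 15.5, 47.2, 63.4 and 73.4 CPM of these markers, all above control 5, so the groups overlapped in the sum. Most of it in these mice was *Tchh*, the marker not called (48.2 ± 25.4 CPM), while the other 5 had *Supt6*-KO means of 0.0423 to 0.917 CPM. *Krt71* had 0.274 to 0.647 CPM in the *Supt6*-KO mice, below the 0.687 CPM of control 5. Of 6 basal keratinocyte markers 3 were lower and 3 not called, and without *Supt6*-KO mouse 4 *Krt5* was lower as well (−1.10, edgeR adjusted p = 0.00017). The basal sum was 11169 to 12768 CPM in the controls, 8196, 5583 and 6814 CPM in *Supt6*-KO mice 1 to 3, and 13902 CPM in mouse 4, above every control. Of 6 suprabasal markers 3 were higher and 3 not called, with or without that mouse.

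Other cells of the dermis were lower in sum, without overlap between the groups. The fibroblast sum, led by *Col1a2*, was 2875, 2508, 1762, 3763 and 6880 CPM in the controls and 914, 1036, 1358 and 939 CPM in the *Supt6*-KO mice, with 2 of 5 markers called lower, and 3 of 5 without mouse 4, which added *Pdgfra*. The endothelial sum, led by *Pecam1*, was 71.2, 59.5, 44.6, 75.8 and 96.8 CPM in the controls and 35, 33.2, 38.3 and 28.6 CPM in the *Supt6*-KO mice, with 3 of 4 lower. The adipocyte sum, led by *Cfd*, was 129, 147, 134, 108 and 91.1 CPM in the controls and 77.0, 67.4, 86.3 and 59.6 CPM in the *Supt6*-KO mice, with 3 of 4 lower. None of these 3 lists had a called higher gene. Of all genes tested, 24.9% were called lower and 20.9% higher.

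Of 4 T cell markers 2 were lower and 1 higher, and their sum, led by *Cd3g* in the controls, was 26.7, 31.8, 33.7, 27.1 and 23.4 CPM in the controls and 15.3, 14.7, 13.7 and 11.1 CPM in the *Supt6*-KO mice. Of 5 macrophage markers 3 were higher and 1, *Csf1r*, lower. Beside both lists, 20.9% of all genes tested were called higher and 24.9% lower. Without *Supt6*-KO mouse 4, *Cd68* (from 1.04 to 0.78) and *C1qa* (from 1.08 to 0.99) fell under the 2-fold limit with adjusted p still under 0.05, which left 1 higher, *Mrc1*. The macrophage sums overlapped, at 101, 84.2, 70.5, 99.8 and 162 CPM in the controls and 158, 162, 161 and 194 CPM in the *Supt6*-KO mice.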

How the data were processed

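Bulk RNA-Seq of skin from 5 control and 4 *Supt6*-KO mice was used. The submitters' processing notes name HISAT, Bowtie2 2.3.4.3, RSEM 1.3.1, DESeq2 1.4.5 and mm10, and the annotation release is not given in the sources used here. The authors deposited estimated counts per gene from RSEM without normalization between samples, 8.39% to 9.55% of them not whole in a sample, and they deposited TPM for 6 of the 9 mice. Of 17943 gene IDs, 17918 matched RefSeq and 25 did not.

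Estimated counts were rounded, genes with a sum under 10 were left out, and the groups were compared with edgeR 4.0.16 (TMM, quasi-likelihood test, no covariates, R 4.3.3) with Benjamini-Hochberg adjustment over 16426 genes. A gene was called at adjusted p under 0.05 with a log2 fold change of at least 1 in size. Total counts were about equal in all mice, and a gene at 3 counts or fewer was at the floor, which covers counting error only. As the TMM factors were lower in the *Supt6*-KO mice, this floor stood for a higher CPM there than in the controls. Shares used a pseudocount of 0.5 and two-sided exact permutation tests. Lengths and gene models are from GENCODE and promoters from RefSeq, both GRCm38. Of the lists, *Sprr2g*, *Sprr2j-ps* and *Trac* were not matched. Sequences were compared with Biopython 1.88, and tables made with pandas 2.3.3 and scipy 1.17.1 in Python 3.11.15.

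Named genes are *Supt6*, the members, the 2 highest and 2 lowest of each list, the transglutaminases, the neighbours and the 10 genes most alike over the mice. *Lor*, *Lce1f*, *Fosl2*, *Tfap2a*, *Krt1*, *Krt10* and other cell markers were chosen after their values were seen. The members and lists were chosen with earlier results of these data known, so none is independent evidence. The tests were tried on simulated counts. The alternatives were upper-quartile factors, library totals, DESeq2 1.42.0, unrounded counts, 2 other filters, a length correction, a replicate block and the removal of single mice. The length correction was fitted to the log2 fold changes of these same data.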

Additional observations from a re-analysis of the deposited data

Results flagged for a closer look

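Of 54 groups of values examined for a single mouse far from the rest, 2 stood out, where chance alone gives about 1 in 20 groups (2.7 of 54). Both concern *Supt6*-KO mouse 4. Its summed suprabasal keratinocyte markers (21540.3 CPM) were the lowest of the 4 *Supt6*-KO mice, whose median was 42253.4 CPM. Its summed macrophage markers (193.8 CPM) were the highest, beside a median of 161.5 CPM. The same mouse had the lowest level of its group for all 6 *Lce3* genes. None of the *Lce3* genes, and not their sum, stood out by this measure in either group.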

How the results depend on the processing

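All 6 *Lce3* genes were called higher under 16 of 17 alternatives. When 10 counts were required in every mouse, only 3 members (*Lce3c*, *Lce3e* and *Lce3f*) could be tested, and all 3 were called. That filter also left 8 *Sprr* genes higher. The log2 fold change of *Lce3a* lay between 7.18 and 9.19 over its alternatives, and that of *Lce3c* between 4.68 and 6.49. When single mice were left out, the members' median lay between 8.13 and 8.50. The length correction gave a median of 6.71.

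With library totals 1470 genes were higher and 6802 lower, beside 3427 and 4088 with TMM. The late envelope list then had 7 higher and 1 lower, the envelope partners 4 and 6, and the transcription factors 1 and 18. With the length correction 2929 genes were higher and 3598 lower. The late envelope list then had 4 higher and 1 lower, 1 *Sprr* gene was lower, and *Supt6* was at −0.86 (adjusted p = 0.00099). DESeq2 called 1 transcription factor higher. With each mouse left out, the partners had 1 to 4 lower genes (4 without control 2, 1 without *Supt6*-KO mouse 4), and the transcription factors 1 to 2 higher genes (1 without *Supt6*-KO mouse 2). The causes were not tested.

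Among the 5 members other than *Lce3c*, 0 shares passed, and *Lce3e* (−0.50) and *Lce3f* (−0.12) had the other sign. *Lce3b* passed in 2 of the 9 tests with a mouse left out (1.77 without control 1 and 1.56 without *Supt6*-KO mouse 2), and its log2 ratio over all 9 was 0.76 to 1.77. Deviations of mice with the same number correlated at 0.0793 on average over 4 pairs (−0.00856 to 0.159). Those of 16 other pairs correlated at −0.0165 on average (−0.178 to 0.178). So few pairs, compared without a test, cannot show whether mice of the same number were linked. With a replicate block *Lce3a* was at 8.60 and *Lce3c* at 6.13, all 6 members were called, and 3134 genes were higher and 3834 lower.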
